A study of Mus musculus with 6 samples.

Results

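The genes described here make, recycle and use glutathione, and comprise Gclc, Gclm, Gss, Gsr, Gpx1, Gpx4, Ggct, Glrx and Oplah. They were chosen by name: every probe set (a group of oligonucleotides on the array that reports a transcript) whose annotation gives exactly 1 of these symbols was taken, which yielded 10 probe sets for 9 genes out of 34760 probe sets and 19937 singly named genes on the array. RNA of CD4+ T cells from C57BL/6 mice of 6 weeks was hybridised to Affymetrix arrays, in 3 CBS-KO arrays (cells of mice deficient in CBS, cystathionine beta-synthase) and 3 WT arrays (cells of wild-type mice). The labels call them biological replicates, and since nothing states that each came from a separate animal, p-values measure only the spread between these samples. How the Cbs allele was made, whether its loss was limited to T cells, and how the cells were isolated are details not given in these sources.

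Glutathione is a thiol-bearing peptide of glutamate, cysteine and glycine that buffers the redox state of cells. The enzyme encoded by Cbs joins homocysteine to serine in the transsulfuration pathway, which ends in cysteine, the amino acid whose supply usually limits glutathione synthesis. Glutamate-cysteine ligase, a catalytic and a modifier subunit, starts the synthesis and glutathione synthetase completes it. Glutathione peroxidases and glutaredoxin spend reduced glutathione, glutathione reductase restores it with NADPH, and gamma-glutamylcyclotransferase and 5-oxoprolinase return the gamma-glutamyl part to glutamate. In T cells the pathway is known for sustaining growth after activation.

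Promoter sequence was available in the RefSeq table (GRCm38.p6) for 6 of the 9 genes, in 10 windows of 300 bases. Gclc, Gsr and Oplah had no entry. Windows of the same gene overlapped for Glrx and, in part, for Gpx4, so the 10 are not separate promoters. The windows were searched on both strands for TGACNNNGC, the core of the antioxidant response element bound by NRF2, and for TGATGNAA, the core of the amino acid response element bound by ATF4. Both motifs begin with TGA. The first was found in 2 of the 10 windows, those of Gclm and Ggct (2 of the 6 genes), and in 12.4% of all 32851 windows of that length. The second was found in 0 of the 10 and in 3.97% of all windows. Both matching promoters are printed because these genes differed in direction in the arrays, Gclm being higher and Ggct having a negative difference in CBS-KO cells. Each runs 5′ to 3′ on the gene's own strand from 250 bases before to 30 bases after the start site, with matches to TGACNNNGC or its reverse complement in capitals. The Gclm stretch is chr3:122245307-122245586 (plus strand) with a match at bases 117 to 125 on the opposite strand, and the Ggct stretch is chr6:54992838-54993117 (minus strand) with matches at bases 77 to 85 on the opposite strand and 256 to 264 on the gene's strand.
Gclm: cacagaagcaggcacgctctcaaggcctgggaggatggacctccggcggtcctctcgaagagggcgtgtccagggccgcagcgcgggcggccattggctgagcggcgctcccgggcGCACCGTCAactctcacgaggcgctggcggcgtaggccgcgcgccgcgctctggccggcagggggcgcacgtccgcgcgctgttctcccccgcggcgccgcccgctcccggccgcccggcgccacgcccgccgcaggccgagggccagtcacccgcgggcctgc
Ggct: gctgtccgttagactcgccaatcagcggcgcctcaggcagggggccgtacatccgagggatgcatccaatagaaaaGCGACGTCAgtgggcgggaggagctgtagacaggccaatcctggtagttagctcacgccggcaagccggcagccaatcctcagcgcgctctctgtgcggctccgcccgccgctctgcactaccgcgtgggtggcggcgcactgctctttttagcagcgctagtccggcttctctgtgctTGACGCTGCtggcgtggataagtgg
A match describes the letters of the window and is not a binding site.

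Some facts of the whole series bear on every value below. The probe set of Cbs itself had log2 levels of 7.25, 7.63 and 7.35 in CBS-KO 1 to 3 and of 7.37, 7.48 and 7.19 in WT 1 to 3, so the groups overlapped and it does not check the labels. Xist, transcribed from the inactive X chromosome of females, was at 6.02 and 6.18 in CBS-KO 1 and 2 and at 12.23 in CBS-KO 3, against 12.61 to 12.68 in WT arrays, while the Y-linked Eif2s3y was at 9.41, 9.19 and 4.87 in CBS-KO 1 to 3, against 4.87 to 4.90 in WT arrays. Signal from sex chromosomes therefore differed within the CBS-KO group and partly followed the groups. All levels are log2(intensity + 16), differences are CBS-KO minus WT on that scale, and p is limma's, adjusted over the 20856 probe sets whose mean lay above the 40th percentile (6.99), with 0.05 as the threshold. All 10 glutathione probe sets lay above that level and were tested. In RNA from a cell population, a change in the number of cells of a type and a change in RNA per cell cannot be told apart.

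Of the 10 probe sets, 5 were higher in CBS-KO cells (Gclc, Gclm, Gsr, Gpx1 and Glrx) and 0 were lower, 5 not passing the test. Across all tested probe sets 5.09% were called higher, 4.47% lower and 9.57% in either direction, and among the 13862 tested probe sets that name 1 gene 6.33% were called higher. Differences ranged from -0.34 to 1.51 with a median of 0.78, where the median of all tested probe sets was -0.05, and 8 of the 10 were positive. CBS-KO and WT arrays did not overlap in 7 probe sets, 6 with CBS-KO above and 1 with CBS-KO below, against 36.7% of all tested probe sets without overlap in either direction. The SD was larger among CBS-KO arrays in 9 of the 10 (median SD 0.27 in CBS-KO and 0.12 in WT). How often this held over all tested probe sets was not counted. The number that passed depended on which arrays were used, here as over all tested probe sets. Gsr alone passed when WT 1, WT 2 or CBS-KO 1 was left out (1 call each time), Gsr and Gpx1 when WT 3 was left out (2 calls), 8 probe sets when CBS-KO 2 was left out and 5 when CBS-KO 3 was. Of the 20856 probe sets tested in each of these fits, 93, 72 and 670 were called without WT 1, 2 and 3. Without CBS-KO 1, 2 and 3 the calls were 165, 6433 and 1358, against 1995 with all arrays.

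**Figure D1:**
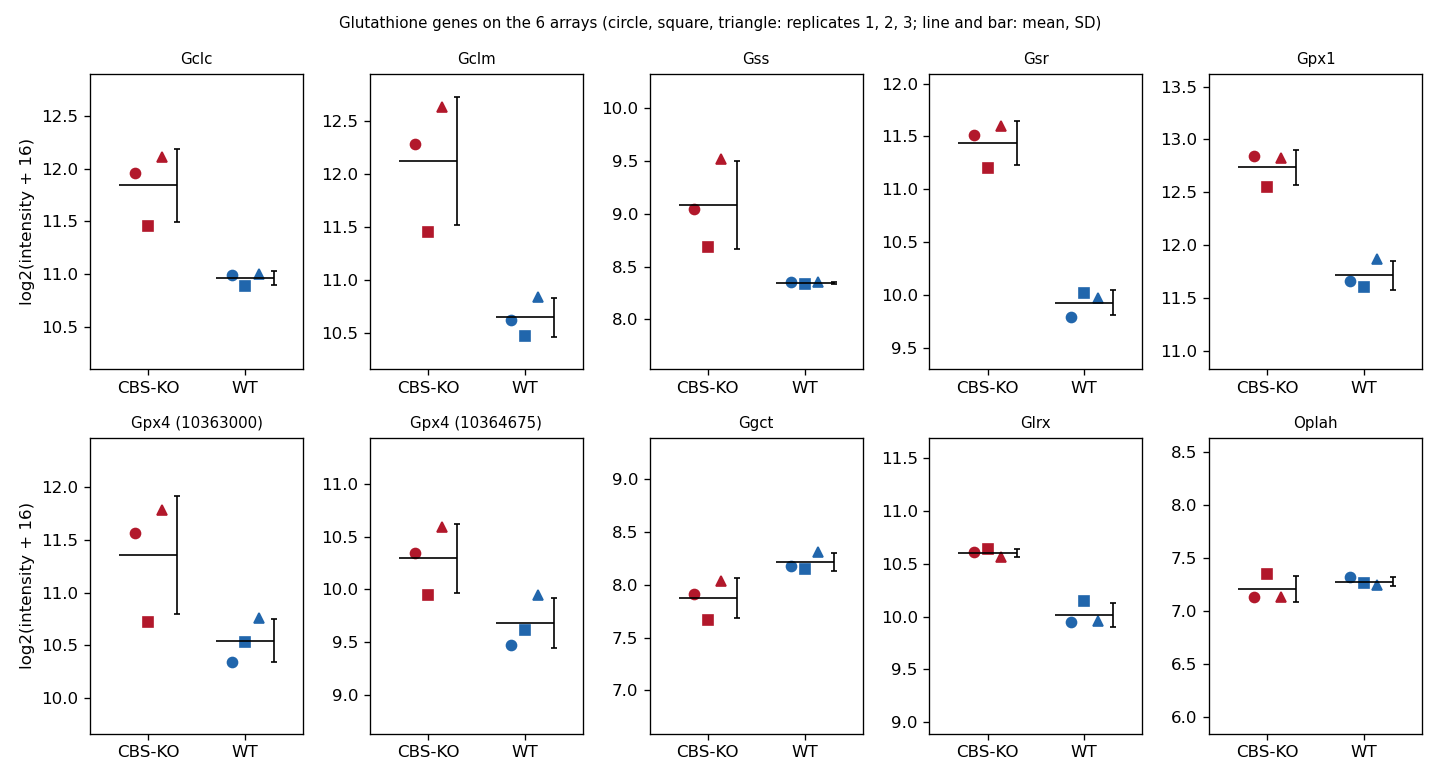
Level of each of the 10 glutathione probe sets, as log2(intensity + 16), in CBS-KO (red, left) and WT (blue, right) arrays; circles, squares and triangles are replicates 1, 2 and 3, lines the group means and bars the SD (n = 3), and every panel spans the same range on its vertical axis. CBS-KO arrays lie above all WT arrays for Gclc, Gclm, Gss, Gsr, Gpx1 and Glrx, below them for Ggct, and overlap them for Oplah and for both Gpx4 probe sets.

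RNA signal of both subunit genes of glutamate-cysteine ligase was higher in CBS-KO arrays. Gclc, the catalytic subunit (probe set 10587266), had levels of 11.96, 11.46 and 12.11 in CBS-KO 1 to 3, against 11.00, 10.89 and 11.00 in WT 1 to 3. Every CBS-KO array lay above every WT array, with the WT values close together and CBS-KO 2 nearest to them. The mean was 11.84 ± 0.34 in CBS-KO and 10.96 ± 0.06 in WT (SD, n = 3 each), a difference of 0.88 (SE 0.17, 95% confidence interval 0.47 to 1.29, limma adjusted p = 0.0325), or 1.84-fold. Gclm, the modifier subunit that in the mouse makes the catalytic subunit more efficient (10495763), had levels of 12.29, 11.46 and 12.63 in CBS-KO 1 to 3, against 10.62, 10.47 and 10.84 in WT 1 to 3. The groups did not overlap, and the CBS-KO arrays spread over 1.18 log2 units where the WT arrays spread over 0.37. The mean was 12.13 ± 0.60 in CBS-KO and 10.64 ± 0.19 in WT (SD, n = 3 each), a difference of 1.48 (SE 0.29, interval 0.79 to 2.18, limma adjusted p = 0.0325), or 2.79-fold.

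The difference of Gclm was compared with those of Gclc and Gss within arrays, a choice made after the values were seen. Relative to its WT mean, the log2 ratio of Gclm to Gclc stood at 0.64, 0.32 and 0.84 in CBS-KO 1 to 3, against -0.06, -0.10 and 0.16 in WT 1 to 3, a mean shift of 0.60. The ratio of Gclm to Gss stood at 0.94, 0.47 and 0.81 in CBS-KO 1 to 3, against -0.03, -0.16 and 0.19 in WT 1 to 3, a mean shift of 0.74. Every CBS-KO array lay above every WT array in both, and for each of the 3 such ratios computed the two-sided exact permutation test gave p = 0.1 (0.1 after Benjamini-Hochberg adjustment), the smallest that 3 against 3 arrays allow, so this test could not pass 0.05. The genes are read by different probes, whose response to a given change may differ. The calls of Gclc and Gclm were lost without WT 1, WT 2, WT 3 or CBS-KO 1 (adjusted p 0.0835 to 0.136 for Gclc and 0.0743 to 0.136 for Gclm) and with no filter on low values (0.0561 and 0.058). The difference itself stayed between 0.74 and 1.15 for Gclc and between 1.23 and 1.99 for Gclm over all 17 alternatives.

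Gss, which adds glycine to gamma-glutamylcysteine in the last step of synthesis (10488879), did not pass. Its levels were 9.05, 8.68 and 9.52 in CBS-KO 1 to 3, against 8.35, 8.33 and 8.35 in WT 1 to 3. The WT arrays were within 0.0164 of each other and all CBS-KO arrays lay above them, but these spread over 0.84 log2 units. The difference was 0.74 (SE 0.22, interval 0.23 to 1.25, limma adjusted p = 0.0729). It passed without CBS-KO 2 (0.94, adjusted p = 0.0111) and with Y-linked signal as a model term (1.18, 0.0163), a fit whose estimate rests on CBS-KO 3, within a range of 0.0111 to 0.209 over the alternatives.

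Gsr, the NADPH-dependent reductase that turns oxidised glutathione back into its reduced form (10571274), rose, with the largest point estimate of the 10 probe sets. The order of Gsr and Gclm turned in 4 of the 17 alternatives, where Gclm had the larger difference: without WT 1, WT 3 or CBS-KO 2 and with Y-linked signal as a model term. Levels were 11.52, 11.20 and 11.60 in CBS-KO 1 to 3, against 9.79, 10.02 and 9.97 in WT 1 to 3. The groups were 1.18 log2 units apart at their nearest arrays, the widest gap of the 10 probe sets. The mean was 11.44 ± 0.21 in CBS-KO and 9.93 ± 0.12 in WT (SD, n = 3 each), a difference of 1.51 (SE 0.14, interval 1.18 to 1.84, limma adjusted p = 0.0058), or 2.85-fold. Gsr passed in all 17 alternatives, with adjusted p between 0.00167 and 0.0442 and a difference between 1.43 and 1.67, and it was the only one of the 10 to do so.

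Of the peroxidases, Gpx1 rose and Gpx4 did not pass. Gpx1, the cytosolic selenoenzyme that reduces hydrogen peroxide (10588899), had levels of 12.84, 12.55 and 12.82 in CBS-KO 1 to 3, against 11.66, 11.61 and 11.86 in WT 1 to 3. The groups did not overlap, and the arrays of each spread over similar ranges, 0.29 in CBS-KO and 0.26 in WT. The mean was 12.74 ± 0.17 in CBS-KO and 11.71 ± 0.14 in WT (SD, n = 3 each), a difference of 1.02 (SE 0.12, interval 0.75 to 1.30, limma adjusted p = 0.00937), or 2.03-fold. Leaving out WT 1, WT 2 or CBS-KO 1 ended this call, at adjusted p of 0.0586, 0.061 and 0.053, and the lowest value in any alternative was 0.00228. Relative to its WT mean, the log2 ratio of Gsr, the enzyme that restores glutathione, to Gpx1, which spends it, stood at 0.46, 0.44 and 0.56 in CBS-KO 1 to 3, against -0.09, 0.20 and -0.11 in WT 1 to 3 (two-sided exact permutation p = 0.1, the smallest possible). This ratio was also chosen after the values were seen, and its test could not pass 0.05.

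Gpx4, the selenoenzyme that reduces lipid hydroperoxides in membranes and so protects cells from ferroptosis, has 2 probe sets. The first (10363000) had levels of 11.56, 10.72 and 11.78 in CBS-KO 1 to 3, against 10.35, 10.53 and 10.76 in WT 1 to 3. The second (10364675) had levels of 10.35, 9.94 and 10.59 in CBS-KO 1 to 3, against 9.48, 9.62 and 9.94 in WT 1 to 3. In both, CBS-KO 1 and 3 lay above all WT arrays and CBS-KO 2 lay among them, just under WT 3. The differences were 0.81 (SE 0.28, interval 0.15 to 1.48, limma adjusted p = 0.104) and 0.62 (SE 0.20, interval 0.13 to 1.10, limma adjusted p = 0.0987). Both passed without CBS-KO 2 (1.13, adjusted p = 0.00502, and 0.79, adjusted p = 0.0198) and with Y-linked signal as a model term (1.24, 0.0411, and 0.91, 0.043), and in no other alternative, the ranges being 0.00502 to 0.288 and 0.0198 to 0.29. The transcript part that each covers is not stated in the sources at hand.

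Glrx, the cytosolic glutaredoxin that removes glutathione from protein thiols (10406270), rose with the smallest SD among CBS-KO arrays of the 10 probe sets. Its levels were 10.61, 10.64 and 10.56 in CBS-KO 1 to 3, against 9.94, 10.15 and 9.96 in WT 1 to 3. This is the only probe set of the 10 in which the CBS-KO arrays varied less than the WT arrays (SD 0.0409 in CBS-KO and 0.11 in WT, n = 3 each). The mean was 10.60 in CBS-KO and 10.02 in WT, a difference of 0.58 (SE 0.11, interval 0.33 to 0.84, limma adjusted p = 0.0267), or 1.50-fold. The call was lost without WT 1 (adjusted p = 0.14), WT 2 (0.097), WT 3 (0.0771) or CBS-KO 1 (0.118), while the difference stayed between 0.54 and 0.65 over the alternatives.

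Neither enzyme of the return path to glutamate passed the test. Ggct, which splits gamma-glutamyl amino acids and releases 5-oxoproline (10544906), had levels of 7.91, 7.67 and 8.04 in CBS-KO 1 to 3, against 8.18, 8.15 and 8.31 in WT 1 to 3. The groups did not overlap, CBS-KO being lower by 0.11 log2 units at the nearest, but the difference of -0.34 (SE 0.14, interval -0.67 to -0.02, limma adjusted p = 0.146) did not pass in any of the 16 alternatives that tested it. Oplah, the ATP-dependent 5-oxoprolinase (10429859), had levels of 7.13, 7.34 and 7.13 in CBS-KO 1 to 3, against 7.32, 7.27 and 7.24 in WT 1 to 3. The groups overlapped, with CBS-KO 2 the highest of the 6 arrays, and the difference was -0.07 (SE 0.10, interval -0.31 to 0.16, limma adjusted p = 0.664). This interval leaves out a measured difference of the size seen in Gclc or Gsr. The levels lay near the filter level of 6.99 and their floor is unknown, so it does not exclude such a change in the transcript itself. Ggct and Oplah were the 2 probe sets not tested under the filter at the 60th percentile.

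**Figure D2:**
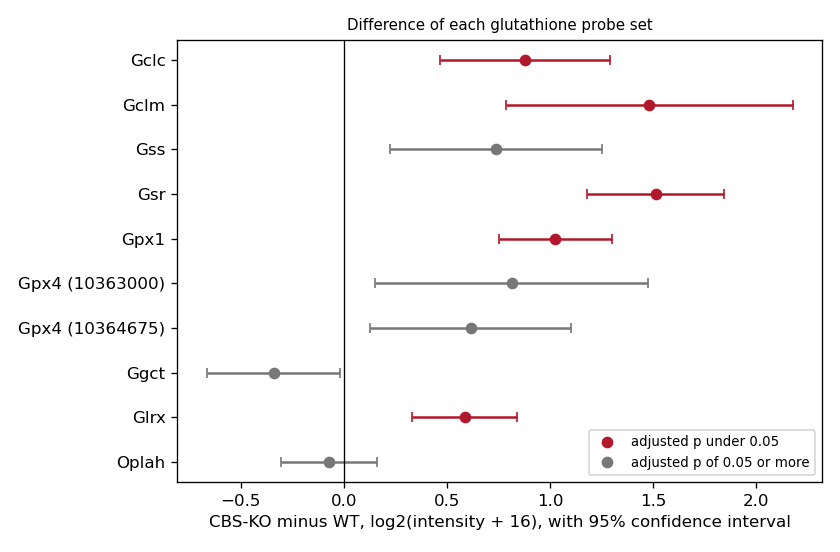
Difference CBS-KO minus WT of each glutathione probe set on the log2(intensity + 16) scale (points) with its 95% confidence interval from limma (bars, n = 3 arrays per group); red marks an adjusted p under 0.05 and grey a larger one. The intervals are not adjusted for the number of probe sets tested. Those of the 5 red probe sets start at 0.33 or above. In grey, the intervals of Gss, both Gpx4 probe sets and Ggct also leave out 0, and only that of Oplah spans it.

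The 3 CBS-KO arrays kept much the same order from gene to gene. CBS-KO 2 was the lowest of the 3 in 8 of the 10 probe sets and CBS-KO 3 the highest in 7. How often this order occurred over the whole array was not counted, so it is not shown to be particular to these genes. Across all probe sets, CBS-KO arrays correlated with each other at 0.970 to 0.988 and WT arrays at 0.989 to 0.994. Over the 8 probe sets with a positive difference, the mean distance above the WT mean was 1.04, 0.60 and 1.22 in CBS-KO 1 to 3. Glrx departed from this order, with distances of 0.59, 0.62 and 0.54, as did Gpx1, with 1.13, 0.83 and 1.11.

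Several marker lists moved with the groups in the same arrays. The CD4 T cell list, led in brightness by Cd3e and Cd4, had 0 of 11 measured genes higher and 4 lower (median -0.57), with mean levels of 11.51 to 12.22 in CBS-KO and 12.48 to 12.57 in WT arrays, so the defining markers of the labelled cell type were bright in all 6. The erythroid list, led by the carbonic anhydrases Car1 and Car2, had 9 of 9 higher (median 2.98, mean levels 11.06 to 12.21 in CBS-KO and 8.25 to 9.04 in WT). The neutrophil list, led by the granule enzymes Mpo and Elane, had 13 of 14 higher (median 3.36, mean levels 10.33 to 10.74 in CBS-KO and 6.89 to 7.56 in WT). In both lists every CBS-KO array thus lay above every WT array. The monocyte and macrophage list, led by Lyz2 and Csf1r, had 10 of 11 higher (median 2.37, mean levels 10.09 to 10.65 in CBS-KO and 7.92 to 8.67 in WT). The proliferation list, led by Mcm5 and Mki67, had 7 of 11 higher (median 1.67, mean levels 10.49 to 11.99 in CBS-KO and 9.45 to 10.00 in WT). No intensity of 0 is listed for any probe set, the lowest being 7.44.

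By array, the lists fell into different orders. The proliferation list stood 1.89, 0.74 and 2.24 above its WT mean in CBS-KO 1 to 3 and the erythroid list 3.21, 2.35 and 3.51, the same order of arrays as Gclc, Gclm, Gss, Gsr and both Gpx4 probe sets. Ggct, which lay below its WT mean in all 3 CBS-KO arrays, had this order too (-0.30, -0.55 and -0.17). So did the platelet list (0.74, 0.13 and 0.77) and, of the related lists described below, NADPH supply (0.57, 0.31 and 0.78). The lists of other glutaredoxins and glyoxalases, glutathione transport, NRF2 regulation and targets and selenocysteine insertion also shared it. The lists of cysteine supply and use, glutathione breakdown and other glutathione peroxidases did not. The neutrophil list stood 3.58, 3.44 and 3.17 above and the monocyte and macrophage list 1.89, 2.46 and 1.98, and the CD4 T cell list lay at -0.62, -0.32 and -1.02. The part of these cell populations in the glutathione genes was not tested. The smaller lists were less uniform: B cell genes (brightest Cd79b and Cd79a) had 0 of 7 called (median -0.23), the list mean of CBS-KO 1 to 3 lying at -0.46, 1.08 and -0.92 from the WT mean, so that CBS-KO 2 stood apart from the other two. NK cell genes (Prf1 and Ncr1) had 2 of 5 higher (median 0.58), dendritic cell genes (Flt3 and Itgax) 3 of 6 higher (median 1.01) and platelet genes (Ppbp and Gp9) 1 of 4 higher (median 0.37). Clec9a, a called gene of the dendritic cell list, had a WT mean of 6.85, below the filter level.

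**Figure D3:**
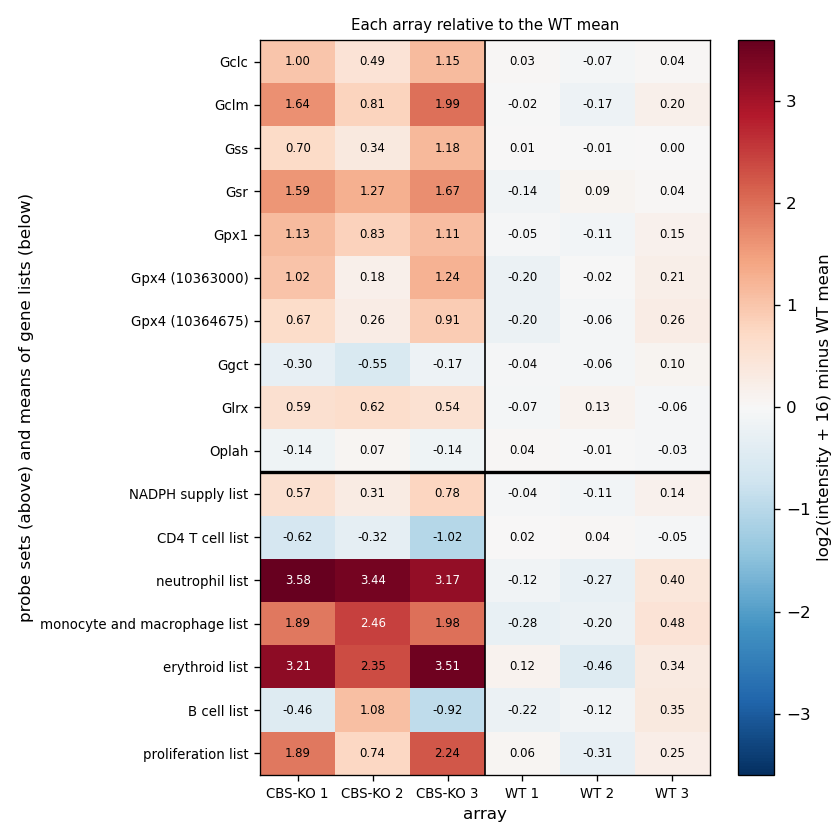
Each cell gives the log2(intensity + 16) of 1 array minus the WT mean, for the 10 glutathione probe sets (above the line) and for the mean of 7 gene lists (below it), with CBS-KO arrays left of WT arrays; red is above and blue below the WT mean. Gclm stands at 1.64, 0.81 and 1.99 in CBS-KO 1 to 3, and the proliferation list at 1.89, 0.74 and 2.24.

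Around these genes, 8 lists of related genes were read from the same fit, each gene by its brightest tested probe set. Of 61 genes tested, 13 were higher and 1 lower, 23% in all against 9.57% of all tested probe sets and 11% of those that name 1 gene, with a median difference of 0.22. When only probe sets that name 1 gene were tested, 26.2% of these genes were called against 16.3% of all such probe sets. The count of 14 called genes in the main fit became 0 when WT 1 or WT 2 was left out and 3 when WT 3 was. It was 1, 28 and 8 when CBS-KO 1, 2 and 3 were left out in turn, and 5 with no filter. Calls over all tested probe sets fell or rose in the same alternatives.

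In the list of cysteine supply and use, 2 of 7 genes were higher, both of them transporters. Slc3a2, the heavy chain shared by the cystine exchanger and other amino acid transporters, differed by 0.52 (SE 0.08, limma adjusted p = 0.0202), with 13.01 in CBS-KO and 12.48 in WT. Slc1a4, a carrier of neutral amino acids including cysteine, differed by 0.82 (SE 0.18, 0.041), with 7.76 in CBS-KO and 6.95 in WT. Its WT mean lay below the filter level. Slc1a4 was tested because its CBS-KO levels raised the mean over all arrays, and the floor of its WT levels is unknown. The exchanger's light chain Slc7a11 lay below the filter, with levels of 5.92 ± 0.14 in CBS-KO and 5.63 ± 0.05 in WT (SD, n = 3 each), as did Cth, the transsulfuration enzyme that follows CBS, with 6.91 ± 0.37 in CBS-KO and 6.71 ± 0.10 in WT. The list's median was -0.01. Among enzymes of glutathione breakdown, 1 of 8 was higher (median 0.33): the membrane aminopeptidase Anpep, also a myeloid surface antigen, by 1.67 (SE 0.35, limma adjusted p = 0.0367). Of the 8, 5 had positive differences, while Ggt5, Ggt6 and Ggt7 had negative ones (-0.93, -0.12 and -0.39). Ggt5 did not pass (SE 0.24, limma adjusted p = 0.0541), although its groups did not overlap.

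NADPH supply had 4 of 10 tested genes higher, all 10 with positive differences (median 0.40). They were Nadk, the cytosolic NAD kinase that makes NADP (0.41, SE 0.08, limma adjusted p = 0.031), Idh1, the cytosolic isocitrate dehydrogenase (0.81, SE 0.17, 0.0377), Mthfd1 of folate metabolism (1.54, SE 0.34, 0.0411) and Nadk2, the mitochondrial NAD kinase (1.11, SE 0.27, 0.0495). Pgd, the second NADPH-producing enzyme of the pentose phosphate pathway, differed by 0.42 (SE 0.13, 0.0881), and G6pdx had no probe set naming it alone. Me1, Me3, Aldh1l1 and Aldh1l2 lay below the filter and were not tested. Their differences were -0.14 and 0.02 (both probe sets of Me1), -0.09, -0.06 and 0.05 in that order.

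In the list of NRF2 regulation and targets, 3 of 12 were higher and the median was 0.09. Nqo1, a quinone reductase, had levels of 9.17, 7.87 and 9.91 in CBS-KO 1 to 3, against 6.70, 6.35 and 6.97 in WT 1 to 3 (difference 2.31, SE 0.49, limma adjusted p = 0.0379). Hmox1, the haem-degrading oxygenase, which macrophages also express, had levels of 10.24, 11.02 and 11.04 in CBS-KO 1 to 3, against 8.50, 8.19 and 9.01 in WT 1 to 3 (2.21, SE 0.29, 0.0138). The groups did not overlap in either gene. All WT levels of Nqo1 lay below the filter level, and their floor is unknown. Nqo1 was tested because its CBS-KO levels raised its mean over all arrays. Mafg, a small MAF partner of NRF2, differed by 0.68 (SE 0.12, 0.0259). Other targets did not pass: Txnrd1, thioredoxin reductase, differed by 0.05 (adjusted p = 0.914), Prdx1, a peroxiredoxin, by -0.03 (0.944) and Srxn1, sulfiredoxin, by 0.26 (0.289). Nfe2l2, which encodes NRF2, differed by 0.02 (SE 0.22, 0.961).

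Among other glutaredoxins and glyoxalases 1 of 7 was higher, all 7 with positive differences (median 0.28). It was Glo1, which uses glutathione to detoxify methylglyoxal, by 1.38 (SE 0.20, limma adjusted p = 0.0161), and its other probe set was higher too (0.87, 0.0329). Glutathione transport had 2 of 8 higher (median 0.22): Slc25a39, a carrier of glutathione into mitochondria, by 0.77 (SE 0.16, 0.038) and the export pump Abcc3 by 1.36 (SE 0.26, 0.031). The dimmer probe set of Slc25a40, a related carrier, was lower (-0.65, adjusted p = 0.0282), while the brighter one did not pass (-0.40, 0.0775). Selenocysteine insertion, which Gpx1 and Gpx4 need, had 0 of 8 higher and 1 lower (median 0.22): Pstk, the kinase that acts on seryl-tRNA for selenocysteine, by -0.50 (SE 0.12, 0.0496). Of the other glutathione peroxidases only Gpx2 lay above the filter, at 7.09 in CBS-KO and 7.15 in WT (-0.06, 0.819).

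**Figure D4:**
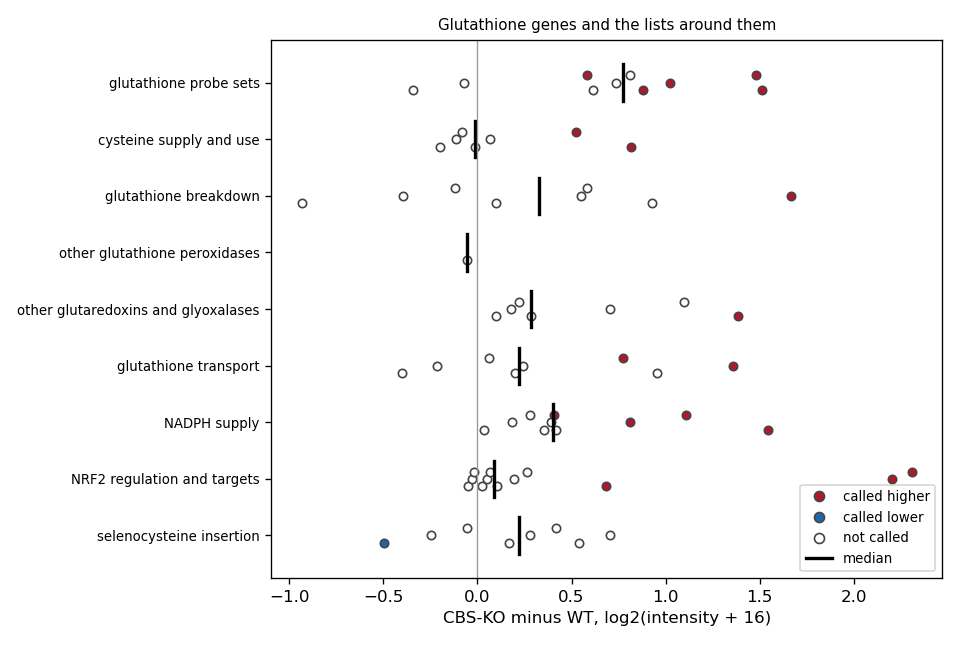
Difference CBS-KO minus WT on the log2(intensity + 16) scale for the 10 glutathione probe sets and for each tested gene of the 8 lists around them (points; red called higher, blue called lower, white not called; the black line is the median, and vertical offsets only separate points). The median of the glutathione probe sets is 0.78 and that of the lists lies between -0.06 and 0.40.

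For each glutathione gene that rose, the 2 genes of most similar pattern were found by the root-mean-square difference over the 6 arrays, after subtraction of each probe set's WT mean, among 13852 probe sets that name 1 other gene. Gclc was nearest to Shmt2, mitochondrial serine hydroxymethyltransferase (0.046), and Pold2, a DNA polymerase delta subunit (0.0473). Gclm was nearest to Micall2 (0.0583) and the retinol saturase gene Retsat (0.0587). Gsr was nearest to Eif4ebp1, a translational repressor controlled by mTOR (0.123), and the amino acid transporter gene Slc7a8 (0.136). Gpx1 was nearest to Cyth3 (0.0565) and the AMP deaminase gene Ampd3 (0.0639), and Glrx to the kinase gene Hipk2 (0.0669) and Cd300lg (0.0748). The measure is not scaled, so it finds genes with a change of similar size.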

How the data were processed

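The authors deposited linear intensities, 1 for each probe set on each array, a scale read from the values. How they corrected the background, normalized the arrays and summarised probes is not stated in these sources. Per the labels' protocols, biotinylated cRNA was made from 6 ug of total RNA. Array medians of log2(intensity + 16) lay between 7.37 and 7.55, and no further scaling was applied.

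Probe sets with a mean above the 40th percentile were tested across all features with limma 3.58.1 in R 4.3.3 (lmFit, eBayes with a trend, two-sided, Benjamini-Hochberg over the 20856 tested). Gene names came from the platform annotation (21640 probe sets with 1 gene symbol, 1321 with several, 11799 with none) and promoters from RefSeq, GRCm38.p6. The fit was tried on simulated data that gave both groups the spread of the WT arrays. The larger spread of the CBS-KO arrays in most glutathione probe sets was therefore not covered. Figures used matplotlib 3.10.9 in Python 3.11.15.

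The members and lists were chosen with earlier results of these data known. Named were all members, of each list the called genes (at most 4 of smallest p), the 2 nearest genes of each called member, and the 2 brightest genes of a marker list. Chosen after their values were seen were the within-array ratios and the other list genes named. The alternatives comprised 2 scalings (quantile, common median), 2 filters (none, the 60th percentile), 2 offsets (1 and 64), eBayes robust or without a trend, the replicate number as a block, Y-linked signal as a term, only probe sets that name 1 gene, and each array left out. Precision is limited by the 3 arrays in each group.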

Additional observations from a re-analysis of the deposited data

How the results depend on the processing

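Under 17 alternatives, none of the 10 glutathione probe sets changed direction; of 168 comparisons with the values given above, 145 stayed on the same side of the threshold, 17 lost and 6 gained a call. The number of probe sets called was 1995 over the array, 5 among the glutathione probe sets and 14 among the related genes. With no filter these counts were 1126, 3 and 5, more probe sets being tested, and with Y-linked signal as a model term the first 2 were 4976 and 8. Leaving out single arrays gave 72 (WT 2) to 6433 (CBS-KO 2), 1 to 8, and 0 to 28, and the cause was not tested. The replicate number as a block gave 2093, 5 and 15. Same-numbered arrays had deviations correlated at 0.063, 0.158 and 0.108, and differently numbered ones at -0.122 to 0.0475. Each of the 3 CBS-KO arrays and each of the 3 WT arrays correlated best with its own number. The labels do not say that the numbers pair arrays, and the main fit did not pair them. Quantile normalization and a common array median left the median of tested probe sets at -0.05 and -0.01. The background of the arrays is unknown here, so small levels such as those of Oplah, Ggct, Cth and Slc7a11 have an unknown floor.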
